A study of Homo sapiens with 4 samples.

Results

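The measurements below concern 9 genes of amino acid and glutathione metabolism in SKBR3, a breast cancer cell line with amplified HER2 in long use: ASNS, GLUL, GOT1, GPT2, PYCR1, ALDH18A1, CTH, CBS and CHAC1. They were taken by name from a table of 56271 genes, and all 9 were found. RNA sequencing compared 2 libraries of cells transduced with an eGFP lentivirus (eGFP control) with 2 libraries of cells overexpressing full-length VIRMA, a scaffold of the complex that writes N6-methyladenosine on RNA. In the study's methods the control vector carried eGFP behind the human ubiquitin C promoter and the VIRMA vector carried eGFP as well, joined to VIRMA by a self-cleaving peptide. Transduced cells were sorted on eGFP and expanded, so each group stands for a sorted population and the libraries were described as biological duplicates. The culture notes attached to all libraries describe a chamber with almost no oxygen and a protein lysate. The methods for RNA sequencing mention no hypoxia, so how much oxygen the sequenced cells had is not settled by the sources. The notes are the same for both groups.

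The libraries held between 81446932 and 86375474 counts. VIRMA, listed as KIAA1429, had 710 and 682 counts in the control libraries against 3437 and 3460 in the VIRMA-overexpressing libraries, which is the direction of the labels. Markers of luminal HER2-positive breast epithelium were abundant, with a summed level of 27502 to 29368 CPM (counts scaled to a fixed library total) per library over 10 genes, and none of them was at 0 in all libraries. Of the 9 luminal markers tested, 3 were higher and 3 lower with VIRMA at an edgeR adjusted p below 0.05. Of all tested genes 35.1% were higher and 35.9% lower at this threshold, which is near the share of the markers. Of 8 erythroid markers, 7 stayed under 1 CPM in every library. The exception was HBB, with 2137 and 1543 counts under eGFP alone and 0 in either library with VIRMA, so the list summed to 20.3 and 28 CPM with eGFP alone, against 0.323 and 0.479 CPM with VIRMA. For leukocyte markers the sum was 1.6 to 2.51 CPM and for fibroblast markers 13.6 to 19 CPM, most of the latter from COL1A1, which was lower in VIRMA-overexpressing cells (log2 fold change -0.62, edgeR adjusted p 2.88e-07). The part of these markers in the results was not tested. In bulk RNA, a change in the number of cells that express a gene and a change of RNA per cell cannot be told apart.

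Asparagine, glutamine, proline and cysteine are amino acids that cells can make for themselves. Asparagine synthetase moves nitrogen from glutamine to aspartate, aminotransferases supply aspartate and alanine, proline is made from glutamate, and cysteine is made from methionine sulphur through transsulfuration or recovered from glutathione. Several of these enzymes are textbook targets of ATF4, the transcription factor of the integrated stress response, which binds composite C/EBP-ATF response elements together with C/EBP proteins.

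Of the 9 genes, 7 rose and 1 fell at an edgeR adjusted p below 0.05, and 4 rose by more than 2-fold: CBS, CHAC1, ASNS and GPT2. CBS passed the expression filter for testing only through the VIRMA-overexpressing libraries, where it is high. PYCR1, CTH and GOT1 rose by less, GLUL fell, and ALDH18A1 did not pass the test. Among all 12205 genes tested, 4.52% were higher and 2.93% lower past both thresholds, while at the adjusted p alone 35.1% were higher and 35.9% lower. A call at the adjusted p alone was therefore frequent in this comparison, whereas a call past both thresholds was rarer. The median log2 fold change was 0.78 over the 9 genes and 0.01 over all tested genes. The genes were named with earlier results of these libraries in view, so these counts describe them and are not independent evidence of their direction. Together the 9 genes took 0.103% of the counts in each control library and 0.174% and 0.172% in the VIRMA-overexpressing libraries.

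**Figure D1:**
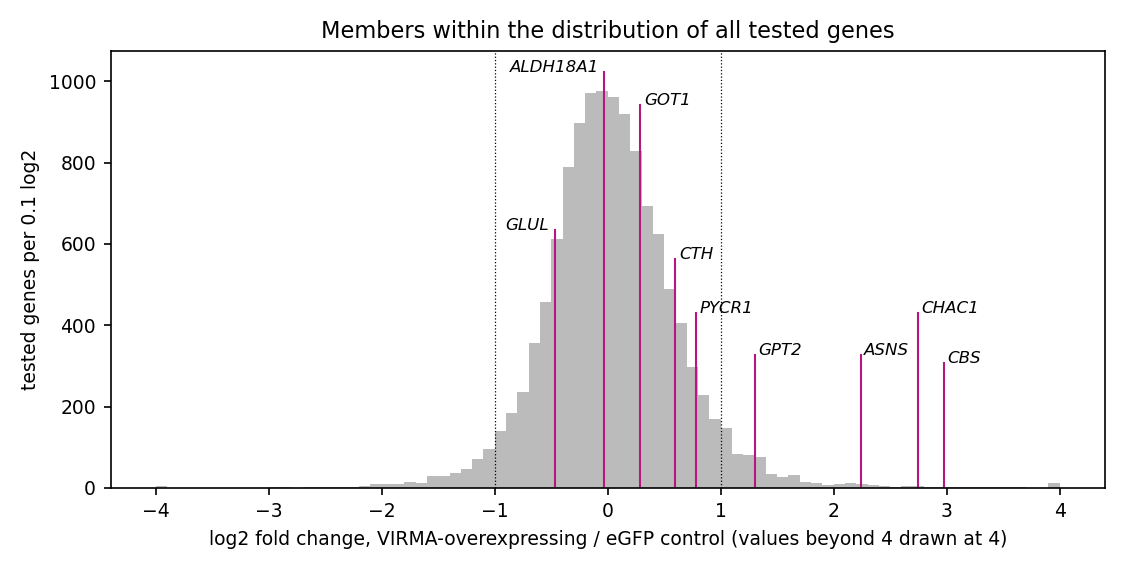
Histogram of the log2 fold change (x axis, VIRMA-overexpressing over eGFP control) of 12205 tested genes (y axis, genes per 0.1 log2), with magenta lines at the 9 enzymes and dotted lines at 2-fold. The heights of the lines carry no value, and changes beyond 4 are drawn at 4. CBS, CHAC1, ASNS and GPT2 lie to the right of the upper threshold, ALDH18A1 lies near the centre at -0.03, and GLUL lies at -0.47.

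The order of the transcript levels differed between the groups. On the scale of RPKM (CPM per kilobase of exon, with TMM-scaled library sizes), GLUL was the highest of the 9 genes in the controls at 60.7 ± 0.31, followed by PYCR1 with 49.3 and 50.2 and GOT1 at 26 ± 0.595 (SD, n = 2). ASNS took the fourth place at 23.1 ± 0.0654 RPKM and CHAC1 the seventh at 7.54 ± 0.189 RPKM. In VIRMA-overexpressing libraries ASNS was the highest at 108.9 ± 0.891 RPKM, ahead of PYCR1 at 85.6 ± 1.09 and CHAC1 at 50.8 ± 1.79, and GLUL had moved to the fifth place at 44 ± 0.111 RPKM (SD, n = 2). ASNS made up 9.68% and 9.7% of the counts of the 9 genes with eGFP alone, and 28.9% and 28.8% with VIRMA, while GLUL went from 51.9% and 51.5% to 23.5% and 23.8%. In both groups CTH and CBS were the lowest. Every pair of neighbours in either order had replicate ranges that did not overlap, the closest being GPT2 (45.6 RPKM in both libraries) and GLUL (43.9 and 44 RPKM) in the VIRMA-overexpressing cells. RPKM used the exonic length in the table, which merges all annotated isoforms and reaches 9032 bases for GLUL, so that the levels of genes with long, rarely used exons are understated.

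**Figure D2:**
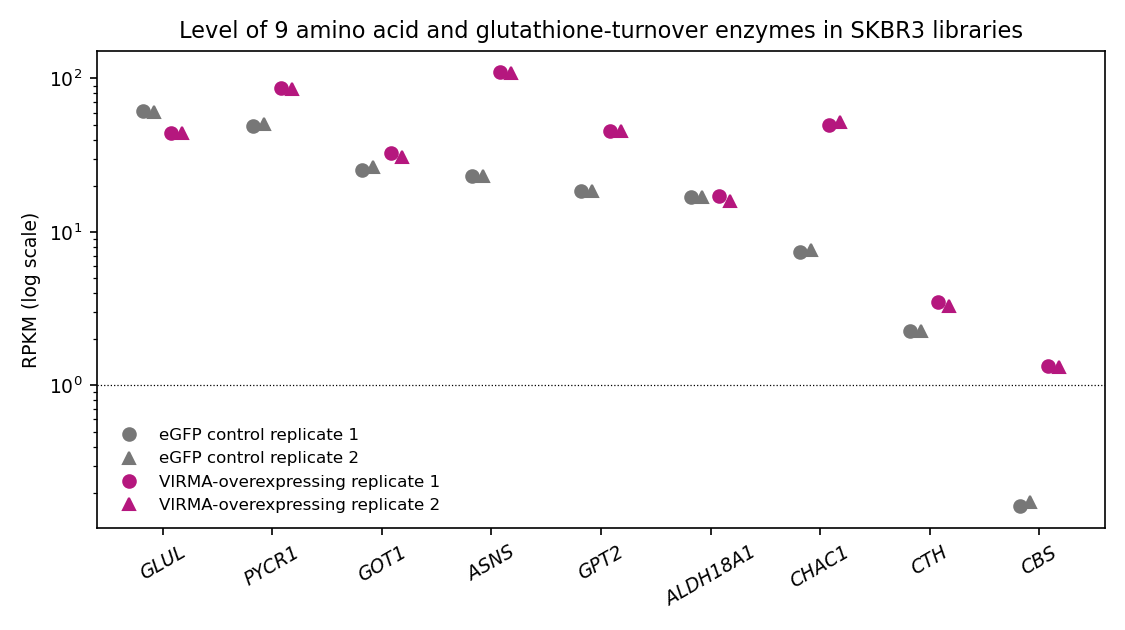
RPKM (y axis, log scale) of the 9 enzymes (x axis, ordered by their control level) in each library, with grey for eGFP control, magenta for VIRMA-overexpressing, circles for replicate 1 and triangles for replicate 2. The dotted line marks the filter of 1 RPKM. The groups of ALDH18A1 overlap. How often groups were separate over all tested genes was not counted, so nothing is read from separation at the other genes. The controls of CBS, at 0.163 and 0.173 RPKM, lie below the filter.

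ASNS, asparagine synthetase, lies on GRCh38 chromosome 7, 97852118 to 97872542, minus strand. It had 8535 and 8623 counts with eGFP alone, and 41780 and 40318 with VIRMA. Both VIRMA-overexpressing libraries were far above both controls, and replicates differed by at most 0.02 on the log2 scale. The mean level went from 102.8 ± 0.291 to 485.1 ± 3.97 CPM (SD, n = 2), a 4.72-fold rise (log2 fold change 2.24, SE 0.0317, edgeR adjusted p 1.71e-35). This placed ASNS at rank 55 of the 12205 genes ordered by log2 fold change.

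CHAC1 encodes a gamma-glutamylcyclotransferase that breaks down glutathione in the cytosol, and it is induced by the ATF4 and CHOP branch of the stress response. It is a compact gene of 3 exons on chromosome 15, 40952962 to 40956519, plus strand. Counts were 1268 and 1322 with eGFP alone, and 8727 and 8954 with VIRMA, without overlap. CHAC1 rose 6.73-fold, from 15.5 ± 0.389 to 104.5 ± 3.67 CPM (log2 fold change 2.75, SE 0.048, edgeR adjusted p 8.49e-33), at rank 29 by log2 fold change.

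The start-site sequences of ASNS and CHAC1 are shown because these genes carry the well-covered large rises, with GOT1 beside them because its window holds the same letters. Each is the RefSeq promoter window of GRCh38.p14, 250 bases before the start site and 50 from it, on the strand of the gene. Capitals mark TGATGNAA, the core of the C/EBP-ATF response element, or its reverse complement. The windows are chr7:97872359-97872658 (minus strand) for ASNS, chr15:40953221-40953520 (plus strand) for CHAC1 and chr10:99430575-99430874 (minus strand) for GOT1.

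ASNS: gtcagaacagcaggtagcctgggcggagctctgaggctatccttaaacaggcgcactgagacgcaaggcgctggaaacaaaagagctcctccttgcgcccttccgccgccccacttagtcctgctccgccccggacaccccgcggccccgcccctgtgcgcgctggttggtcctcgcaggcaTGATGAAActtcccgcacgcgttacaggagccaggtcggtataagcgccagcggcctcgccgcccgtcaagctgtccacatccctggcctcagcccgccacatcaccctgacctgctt
CHAC1: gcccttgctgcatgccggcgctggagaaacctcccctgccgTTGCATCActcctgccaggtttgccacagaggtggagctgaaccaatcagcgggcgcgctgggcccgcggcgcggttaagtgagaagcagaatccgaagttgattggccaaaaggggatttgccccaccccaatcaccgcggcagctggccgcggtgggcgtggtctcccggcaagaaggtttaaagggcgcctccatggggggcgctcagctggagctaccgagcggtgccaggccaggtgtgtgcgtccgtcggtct
GOT1: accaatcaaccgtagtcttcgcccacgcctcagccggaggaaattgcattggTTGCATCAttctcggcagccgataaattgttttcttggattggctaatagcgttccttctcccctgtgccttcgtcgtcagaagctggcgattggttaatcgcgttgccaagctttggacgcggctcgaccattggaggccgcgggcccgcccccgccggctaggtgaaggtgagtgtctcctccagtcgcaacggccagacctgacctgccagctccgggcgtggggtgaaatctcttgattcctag

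In ASNS the match TGATGAAA lay on the gene's own strand, at bases -68 to -61 counted from the start site. In CHAC1 and GOT1 the match was TGATGCAA on the opposite strand, at -209 to -202 and at -198 to -191. Both strands were searched in the 11 windows found for 7 of the 9 genes, and 3 windows of 3 genes held the letters, against 3.62% of all 35116 promoter windows. The palindrome TGACGTCA, the full cyclic AMP response element, was in 0 of the 11 windows and in 1.85% of all. The motif was picked with the members' values known, and a match describes letters, not binding. GOT1, which holds a match, rose by 1.22-fold, and CBS, with the largest rise of the 9 genes, had no match in the 3 windows listed for it. CTH, which rose as well, had none in its window, nor did the second window of ASNS. The 3 genes with a match all rose, as did CBS and CTH without one, and no window of GLUL or ALDH18A1 held one. Whether a match had a part in these changes was not tested. GPT2 and PYCR1 were not matched to a window.

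The windows of the members that did not rise are printed in the same way: ALDH18A1 at chr10:95656662-95656961 and the upstream start of GLUL at chr1:182391741-182392040, both on the minus strand. Neither contains TGATGNAA on either strand, so no base is in capitals.

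ALDH18A1: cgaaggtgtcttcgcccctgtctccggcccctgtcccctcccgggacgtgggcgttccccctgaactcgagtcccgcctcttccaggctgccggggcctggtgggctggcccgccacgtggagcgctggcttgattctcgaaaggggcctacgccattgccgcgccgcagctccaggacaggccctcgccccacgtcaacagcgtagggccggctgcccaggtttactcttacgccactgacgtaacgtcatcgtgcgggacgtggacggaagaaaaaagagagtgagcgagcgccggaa
GLUL: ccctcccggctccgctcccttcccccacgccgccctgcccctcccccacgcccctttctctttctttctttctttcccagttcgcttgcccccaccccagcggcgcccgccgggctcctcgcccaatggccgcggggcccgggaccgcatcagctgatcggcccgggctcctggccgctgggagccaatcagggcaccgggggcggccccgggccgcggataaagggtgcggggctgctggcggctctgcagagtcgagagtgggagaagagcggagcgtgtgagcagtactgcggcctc

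GPT2, the mitochondrial alanine aminotransferase, makes alanine and 2-oxoglutarate from pyruvate and glutamate. It lies on chromosome 16, 46884378 to 46931297, plus strand. Its counts were 9807 and 9824 with eGFP alone, against 24835 and 24231 with VIRMA. GPT2 rose 2.46-fold, from 117.6 ± 0.376 to 290 ± 0.116 CPM (log2 fold change 1.30, SE 0.032, edgeR adjusted p 2.31e-28). Its cytosolic relative GPT was rare, at 218 and 267 counts with eGFP alone, and 567 and 557 with VIRMA, and it rose as well (log2 fold change 1.19, SE 0.146, edgeR adjusted p 5.62e-09). The log2 ratio of GPT2 to GPT within a library was 4.15 and 3.88 with eGFP alone, and 4.19 and 4.18 with VIRMA, a difference of 0.17 that was smaller than the gap between the controls. This difference was not stable, at 0.52 with a pseudocount of 1 RPKM in place of 0.1, 0.30 without eGFP control replicate 1 and 0.04 without eGFP control replicate 2.

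GOT1, the cytosolic aspartate aminotransferase of the malate-aspartate shuttle, is on chromosome 10, 99396870 to 99430624, minus strand. It had 5149 and 5352 counts in the controls against 6799 and 6238, a small rise (log2 fold change 0.29, SE 0.0415, edgeR adjusted p 1.25e-07). GOT2, its mitochondrial counterpart, went the other way, from 21088 and 21714 counts to 16531 and 16183 (log2 fold change -0.41, SE 0.0312, edgeR adjusted p 5.36e-14). Within a library GOT2 stood 2.62-fold above GOT1 in RPKM in the controls and 1.61-fold above it in VIRMA-overexpressing cells. The log2 ratio of GOT1 to GOT2 was -1.39 and -1.38 with eGFP alone, and -0.64 and -0.74 with VIRMA.

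GLUL, glutamine synthetase, joins ammonia to glutamate and was the member that fell. It occupies chromosome 1, 182381704 to 182392206, minus strand, and was the most counted of the 9 genes in the controls at 45793 and 45749 counts, against 33943 and 33255 in the VIRMA-overexpressing libraries. The groups did not overlap. The decrease was from 548.6 ± 2.8 to 397.1 ± 1 CPM, 1.38-fold (log2 fold change -0.47, SE 0.0284, edgeR adjusted p 9.44e-17).

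At the adjusted p alone, 35.1% of all tested genes rose and 35.9% fell. Around the members above, 11 of 16 other genes of glutamine, glutamate and aspartate metabolism were tested. Of these 5 rose, 2 fell and 4 did not pass, with a median log2 fold change of 0.13. ASRGL1, an asparaginase-like enzyme, fell most (log2 fold change -0.82, SE 0.0755, edgeR adjusted p 7.79e-12), from 21.3 ± 0.601 to 12.1 ± 0.304 CPM. With ASNS rising and ASRGL1 falling, their log2 ratio in RPKM went from 2.32 and 2.27 to 5.30 and 5.33. GLUD1, glutamate dehydrogenase, rose (0.30, edgeR adjusted p 1.22e-08), as did ASS1, argininosuccinate synthase, which consumes aspartate (0.22, edgeR adjusted p 3.46e-09). Of 9 other enzymes that take their nitrogen from glutamine as ASNS does, 7 were tested, and 3 rose, 1 fell and 3 did not pass. GFPT1, the entry enzyme of the hexosamine pathway, rose from 4618 and 4814 to 12387 and 11942 counts (log2 fold change 1.35, SE 0.0375, edgeR adjusted p 1.14e-26). CTPS1, a CTP synthase, fell (-0.33, edgeR adjusted p 8.81e-09). NADSYN1, NAD synthetase, and CAD, the start of pyrimidine synthesis, passed at 0.13 and 0.09 (edgeR adjusted p 0.00459 and 0.0371), calls that were lost under other filters.

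**Figure D3:**
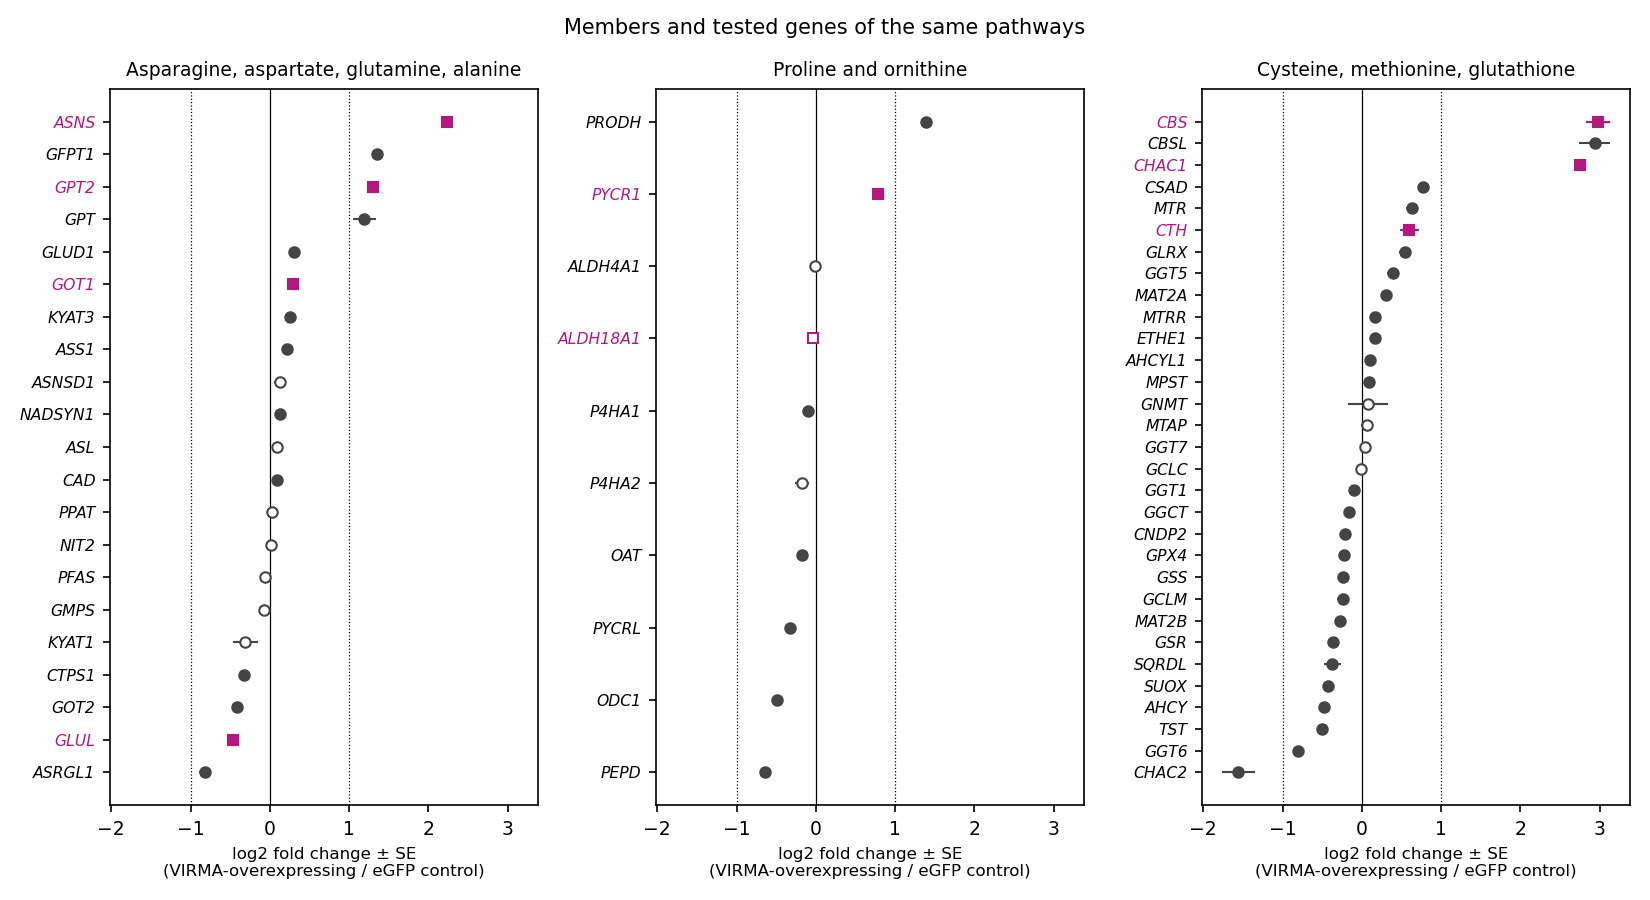
Log2 fold change with its standard error (x axis, VIRMA-overexpressing over eGFP control) of the 9 enzymes (magenta squares) and tested genes of their pathways (dark circles), in 3 panels by pathway with genes in order of fold change. Open symbols did not pass an adjusted p of 0.05 and dotted lines mark 2-fold. ASNS, GPT2, CBS and CHAC1 lie beyond the upper line, while most neighbours lie between the lines.

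The genes of proline synthesis differed in direction. PYCR1, the mitochondrial reductase that completes proline synthesis, is on chromosome 17, 81932384 to 81942412, minus strand, and had 11824 and 12126 counts with eGFP alone, and 21352 and 20473 with VIRMA. It rose 1.72-fold, from 143.5 ± 1.92 to 247.1 ± 3.14 CPM (log2 fold change 0.78, SE 0.0321, edgeR adjusted p 1.01e-21), and stayed under the 2-fold threshold. ALDH18A1, which supplies PYCR1 with its substrate from glutamate, lies on chromosome 10, 95605929 to 95656706, minus strand. Its counts were 5290 and 5317 with eGFP alone, and 5514 and 5036 with VIRMA, and its groups overlapped. The ALDH18A1 difference was -0.03 (SE 0.0427, edgeR adjusted p 0.561), smaller than the gap of 0.10 between the VIRMA-overexpressing replicates.

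PYCRL, a cytosolic relative of PYCR1 now named PYCR3, fell from 4257 and 4192 to 3402 and 3455 counts (log2 fold change -0.32, SE 0.0473, edgeR adjusted p 2.32e-07). PYCR1 was 3.17 times PYCRL in RPKM in the controls and 6.81 times in VIRMA-overexpressing cells. PRODH, which oxidises proline back to the intermediate, rose more than any of the 9 tested proline and ornithine enzymes on the list, from 4212 and 3986 to 11123 and 10711 counts (log2 fold change 1.39, SE 0.0397, edgeR adjusted p 2.2e-26). PRODH has a duplicated copy in its chromosomal region, so its counts carry the uncertainty of shared reads. ALDH18A1 exceeded PRODH 2.98-fold in RPKM in the controls and 1.12-fold in VIRMA-overexpressing cells. Among all tested genes 35.1% rose and 35.9% fell at the adjusted p alone. In the proline and ornithine list 2 of 9 tested genes rose, 5 fell and 2 did not pass, and the median was -0.17. Among those that fell were PEPD, which frees proline from dipeptides (-0.64, edgeR adjusted p 1.05e-11), and ODC1, ornithine decarboxylase (-0.49, edgeR adjusted p 5.08e-15).

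CBS and CTH catalyse the consecutive steps of transsulfuration, from homocysteine to cystathionine and on to cysteine. CBS (chromosome 21, 43053191 to 43076943, minus strand) was barely detected in the controls, at 92 and 98 counts, against 776 and 741 with VIRMA. The means were 1.14 ± 0.0458 against 8.96 ± 0.14 CPM, 7.86-fold (log2 fold change 2.98, SE 0.156, edgeR adjusted p 1.45e-18), at rank 24 among all tested genes. CBS passed the filter of 1 RPKM only through the VIRMA-overexpressing libraries, and without a filter its value was 2.94. A near-identical copy, CBSL, on the same chromosome from 6444869 to 6468040, had 63 and 63 counts against 495 and 487 (log2 fold change 2.94, SE 0.193, edgeR adjusted p 7.51e-16), and it too passed the filter only through the VIRMA-overexpressing libraries, where it is high. Reads of the copies cannot be told apart with confidence, and counted together they gave 2.96.

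CTH, cystathionine gamma-lyase (chromosome 1, 70411218 to 70439851, plus strand), had 453 and 454 counts with eGFP alone, and 724 and 668 with VIRMA. It rose 1.51-fold, from 5.44 ± 0.0156 to 8.22 ± 0.328 CPM (log2 fold change 0.60, SE 0.118, edgeR adjusted p 3.11e-05). In plain RPKM the control means were 2.25 for CTH and 0.168 for CBS, and those with VIRMA were 3.41 and 1.32. The size of a ratio to CBS rests on the pseudocount, since the controls lie near it: the log2 ratio of CTH to CBS changed by -1.83 with 0.1 RPKM added to each gene and by -0.55 with 1 RPKM added.

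Around transsulfuration, 15 of 20 genes of the methionine cycle and sulphur metabolism were tested, CBSL among them. Of the 15 tested, 8 rose, 5 fell and 2 did not pass, with a median of 0.09. The shares over all tested genes at the adjusted p alone were 35.1% higher and 35.9% lower. CSAD, which leads from cysteine sulphinate to taurine, rose by 0.77 (SE 0.044, edgeR adjusted p 1.48e-17), and MTR, methionine synthase, by 0.63 (SE 0.0665, edgeR adjusted p 1.81e-10). AHCY, which releases homocysteine, fell by 0.48 on the log2 scale (edgeR adjusted p 1.54e-15) and TST, a mitochondrial sulphurtransferase, by 0.50 (edgeR adjusted p 2.43e-10).

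CHAC1 rose, while its paralogue CHAC2 fell. Of 16 genes of glutathione synthesis and turnover, 13 were tested, of which 2 rose, 9 fell and 2 did not pass, and the median was -0.21. Among all tested genes 35.9% fell at this threshold, and 8 of the 9 here fell by less than 2-fold. GCLC, the catalytic subunit of the rate-limiting synthetic enzyme, did not pass (-0.01, edgeR adjusted p 0.896), while its modifier subunit GCLM (-0.24) and the next enzyme GSS (-0.24) fell, with edgeR adjusted p of 0.00219 and 8.71e-07. CHAC2, the paralogue of CHAC1, went from 297 and 301 counts to 120 and 86 (log2 fold change -1.56, SE 0.208, edgeR adjusted p 3.37e-08), the only gene of this list past both thresholds. GGT6, a member of the gamma-glutamyltransferase family, fell (-0.80, edgeR adjusted p 7.85e-15), and GLRX, glutaredoxin, rose (0.55, edgeR adjusted p 5.54e-08). GGT5, which acts on glutathione outside the cell, rose as well (0.39, edgeR adjusted p 3.99e-06). Within a library the log2 ratio of CHAC1 to CHAC2 was 1.42 and 1.46 with eGFP alone, and 5.42 and 5.89 with VIRMA, or 2.72-fold and 50.4-fold on average with a pseudocount of 0.1 RPKM. With 1 RPKM the difference of 4.21 became 3.56, since CHAC2 was at 1.06 and 0.779 RPKM with VIRMA.

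**Figure D4:**
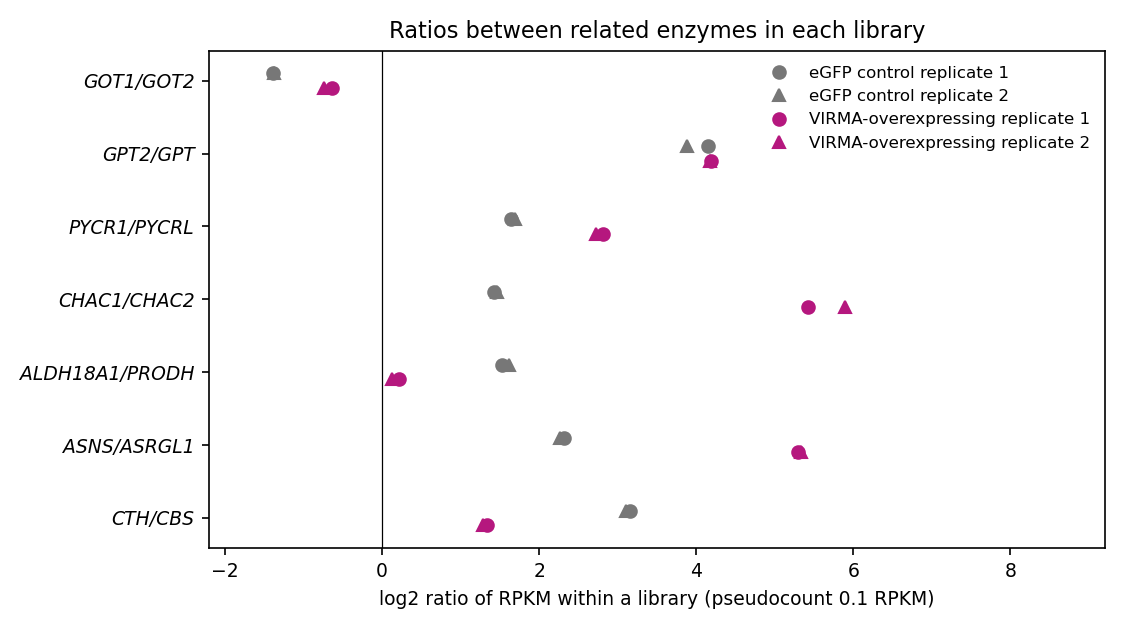
Log2 ratio of RPKM (x axis, pseudocount 0.1) between related enzymes (y axis) within each library, with grey for eGFP control, magenta for VIRMA-overexpressing, circles for replicate 1 and triangles for replicate 2. CHAC1/CHAC2 and ASNS/ASRGL1 lie further right in the VIRMA-overexpressing libraries by 4.21 and 3.03, and CTH/CBS and ALDH18A1/PRODH further left by 1.83 and 1.41.

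Ratios were taken within a library, with 0.1 RPKM added to each gene, so those with a gene near that level depend on it. The groups were separate for all 7 ratios given here. In 6 of them the difference of the means exceeded the gap between replicates, and the exception was GPT2 to GPT. An exact two-sided permutation test over 2 against 2 libraries gave 0.33 for each ratio, the smallest p it can give, so the ratios are reported as values.

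ATF4 and 5 partner factors were all tested and all 6 rose at the adjusted p, where 35.1% of all tested genes did, and 4 of them, all but ATF4 and CEBPB, rose by more than 2-fold, against 4.52% of all. ATF4 itself went from 473.9 ± 8.31 to 788.7 ± 15.2 CPM (log2 fold change 0.73, SE 0.0282, edgeR adjusted p 1.53e-22). CEBPG, a C/EBP protein that pairs with ATF4 at amino acid genes, rose by 1.81 (SE 0.0431, edgeR adjusted p 9.26e-29) and CEBPB by 0.77 (edgeR adjusted p 1.53e-22). DDIT3, which encodes CHOP, rose by 3.48, ATF3 by 1.37 and the pseudokinase TRIB3 by 1.33, with edgeR adjusted p of 3.2e-36, 5.44e-25 and 5.23e-30. The list was chosen with results of these libraries known. All these values are of RNA. For protein, the study reported minimal changes of ATF4 in VIRMA-overexpressing SKBR3 cells under optimal culture. After arsenite and under hypoxia it reported more ATF4 protein in these cells than in controls.

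Over the 4 libraries the profiles nearest to that of ASNS, by Euclidean distance between log2 CPM centred on each gene's mean, were those of GTPBP2 (0.0276), NUPR1 (0.0489) and KIAA1429 itself (0.0657). Their log2 fold changes were 2.27, 2.27 and 2.29. KIAA1429 passed the filter of 1 RPKM only through the VIRMA-overexpressing libraries, and its counts there can include RNA of the VIRMA vector. Nearest to CHAC1 were F7 (0.199), SLC7A11 (0.23) and UNC5B (0.283), with log2 fold changes of 3.16, 2.83 and 3.02. F7 was barely detected in the controls, at 0.962 and 1.3 CPM. With 2 groups of 2 libraries this likeness reflects little beyond the size of the group difference.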

How the data were processed

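Poly-A-enriched RNA of SKBR3 cells was sequenced by the authors in 4 libraries made with a stranded kit. Per the labels and methods, reads were trimmed with Trimmomatic 0.39, aligned to hg38 with STAR 2.5.2a and counted over genes by featureCounts. What the authors deposited is a table of unnormalized counts beside the exonic length of every gene. Strand setting and multi-mapping reads are not given in the sources used here. Control columns name their group. Those with VIRMA bear only a numeral, were taken as the other group, and were checked by the counts of VIRMA. Coordinates are GRCh38: 99.74% of 34009 rows with a symbol in the GENCODE annotation overlapped its position.

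The members and gene lists were chosen with earlier results of these data known. RPKM was computed from the counts, and the 12205 genes above 1 RPKM in at least 2 libraries were tested in edgeR 4.0.16 (R 4.3.3) by quasi-likelihood, with TMM factors (0.969 to 1.032), a model of group alone, and p-values adjusted after Benjamini and Hochberg across the tested genes. Thresholds were an adjusted p of 0.05 and a log2 fold change of 1 in size, after the study's methods. The SE is the log2 fold change divided by the square root of F. CPM and RPKM in the text use TMM-scaled library totals. The test was checked on simulated counts. Replicates differed beyond sampling noise (chi-square per degree of freedom 6.34 and 5.18) and were not counted as 1 library. P-values measure the spread between 2 libraries of each population, and effects of VIRMA and other differences between the populations cannot be told apart.

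Named genes were all members, the genes of the enzyme ratios, up to 4 genes per list with the largest change among those past the adjusted p, and the 3 nearest profiles of ASNS and CHAC1. Genes named beyond this rule (GLUD1, ASS1, AHCY, GCLC, GCLM, GSS, ATF4, CEBPB and the inner transcripts) were chosen after their values were seen. The 2 symbols CCBL1 and CCBL2 were matched to KYAT1 and KYAT3 through RefSeq synonyms. Promoter windows are those of RefSeq, and all 11 equalled the genome sequence. Alternatives were DESeq2 1.42.0, voom of limma 3.58.1, 3 other scalings, 3 other filters, the replicate number as a block, other thresholds, leaving out each library and CBS with CBSL. Ratios of RPKM, with a pseudocount of 0.1 (1 as an alternative), were tested with scipy 1.17.1. The values of 2 pathway genes and of their ratios to members are not reported here, and both genes are part of the list counts and medians.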

Additional observations from a re-analysis of the deposited data

How the results depend on the processing

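All 9 members kept their side of both thresholds under every other test, scaling and filter, the block and each left-out library. Over these settings ASNS ran from 2.19 to 2.32, GLUL from -0.51 to -0.38, GOT1 from 0.25 to 0.38, GPT2 from 1.26 to 1.39, PYCR1 from 0.74 to 0.87, CTH from 0.55 to 0.68, CBS from 2.93 to 3.06 and CHAC1 from 2.71 to 2.83. ALDH18A1 never passed, and its sign turned with upper-quartile factors (0.043), library totals (0.055) and without VIRMA-overexpressing replicate 2 (0.019). Leaving out a library gave -0.077 to 0.019. Under those scalings the all-gene median moved by 0.072 and 0.083. Where a library was left out, the lone library was assumed to vary like the other group.

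Counts over all genes depended on the filter, which changes how many genes are tested: filterByExpr gave 1044 higher and 808 lower, no filter gave 1137 and 820, and a minimum of 10 counts per library gave 930 and 689. Tested against 2-fold they were 189 and 173, and at the adjusted p alone 4282 and 4379. For the 9 members the adjusted p alone gave 7 higher and 1 lower. Among the 61 tested genes of the 6 pathway lists, 8 were higher and 1 lower past both thresholds. The shares of all tested genes there were 4.52% and 2.93%. The 8 include CBSL and 4 of ATF4 and its partner factors. At the adjusted p alone the lists came to 26 and 22, against 35.1% and 35.9% of all tested genes. The lower count past both thresholds was 2 with filterByExpr, 3 with no filter and 2 with at least 10 counts. NADSYN1 no longer passed with filterByExpr (0.082), with no filter (0.092) or without eGFP control replicate 2 (0.088). CAD no longer passed under DESeq2 (0.089), these 3 filters (0.05, 0.059 and 0.064), or without eGFP control replicate 1 (0.064) or VIRMA-overexpressing replicate 2 (0.076). For the change under DESeq2 the cause was not tested.

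Of the enzyme ratios, a pseudocount of 1 RPKM in place of 0.1 kept the direction of all 7 and changed most the difference of CTH to CBS (-0.553 from -1.832), of CHAC1 to CHAC2 (3.555 from 4.213) and of GPT2 to GPT (0.524 from 0.170). Leaving out a library moved the last from 0.038 to 0.303.

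The replicate numbers did not pair the libraries, whose deviations from the group means correlated at 0.075 across genes. With the replicate block 541 genes were higher and 356 lower, and no call on a member changed.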

Other observations

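Some features annotated inside or across the members had more counts in the same libraries. AC079781.5, a feature of 123 bases on the plus strand at chromosome 7, 97870167 to 97870289, lies between exons of ASNS, which is on the minus strand. It had 19 and 20 counts with eGFP alone, and 211 and 248 with VIRMA (log2 fold change 3.53, SE 0.312, edgeR adjusted p 2.4e-12). Its SE was larger than that of ASNS, 0.0317. The setting for strand is unknown, so reads of this feature and of the ASNS intron around it cannot be told apart. It shares no exonic bases with ASNS.

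AC137723.5, on the plus strand across the upstream end of PYCR1, had 2 and 1 counts with eGFP alone, and 23 and 23 with VIRMA. MYADML2, on the strand of PYCR1 and sharing 408 exonic bases with it, had 25 and 19 against 76 and 71. Both were below the RPKM filter. Reads in the bases that MYADML2 shares with PYCR1 cannot be assigned to either gene with confidence. AC137723.5 shares no exonic bases with PYCR1, and the doubt about strand holds for it.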
